A study of Mus musculus with 2 samples.

Results

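The Cyp2 family of cytochrome P450 genes was read in 2 samples of mouse liver cells, mature hepatocytes (MHs) and Sox9+EpCAM- biphenotypic hepatocytes. Its members were taken by name, as every gene of the array design whose name is Cyp2 followed by a subfamily letter and a number, which gave 44 of 30153 gene names and 59 of 39390 probes. MHs came from healthy livers of Sox9-EGFP mice and were purified on a Percoll gradient. Sox9+EpCAM- cells were GFP+EpCAM- cells that FACS separated from the livers of Sox9-EGFP animals on a diet with DDC, a compound that injures the bile ducts. Both groups thus carried the EGFP reporter, they differed in diet and in the way the cells were isolated, and the age and the number of mice behind each array were not given in the sources used here. A time of feeding is stated for sorted cells of this kind but not tied to the array. Each group has 1 array, with 1 Cy3-labelled RNA hybridised to 60-base probes, so nothing here carries a replicate error or a test, and precision is limited by having 2 arrays.

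Cytochromes P450 are heme enzymes of the endoplasmic reticulum that insert an oxygen atom into their substrate, with electrons passed on by the reductase Por. The Cyp2 family is the broadest of those that handle drugs and other foreign compounds, and it also acts on steroids, bile acids, vitamin D and arachidonic acid. In mouse most of its genes stand in clusters that arose by duplication, they are among the abundant transcripts of hepatocytes, and several are expressed around the central vein only or in one sex only.

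The labels call both samples male. However, Xist, the RNA of the inactive X chromosome, gave 1940 in MHs and only 16.1, not well above background, in Sox9+EpCAM- cells. The Y-linked genes Ddx3y, Kdm5d, Uty and Eif2s3y were the reverse, with intensities of 642, 490, 201 and 140 in Sox9+EpCAM- cells and of 6.03 to 8.5 in MHs, where none was well above background. The sex of the animals thus goes against the label of the MH sample, and for the Cyp2 genes known to differ between the sexes it cannot be told apart from the injury. Sox9 was well above background in Sox9+EpCAM- cells only, with a signal of 60.7 against 8.87. Epcam, the marker the sort was gated against, was well above background on both arrays, at 139 in MHs and 2770 in Sox9+EpCAM- cells.

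All 9 hepatocyte markers were well above background on both arrays, with a summed intensity of 864015 in MHs and 667510 in Sox9+EpCAM- cells and a median log2 difference of -1.02. Of 7 cholangiocyte markers 6 were well above background in MHs and 7 in Sox9+EpCAM- cells, and their sum was 1763 and 51897. Of these Spp1 (258 and 47000) and Epcam were at least 4-fold higher, Krt19 differed by 0.42 on the log2 scale, Cldn7 by 0.21 and Krt7 by -0.23, Cftr gave 69.6 and 52.1, and Sox9 was at least 1.45-fold higher. Of 7 fibroblast and stellate cell markers 5 and 6 were, with sums of 948 and 44898, and Eln and Mgp were not well above background in MHs. The 3 collagens, Eln and Mgp were higher by 4-fold or more, Des differed by 0.09, and Lrat of stellate cells went the other way, at 94.6 and 3.74, the latter not well above background. All 8 leukocyte markers on the array were on both, with sums of 18478 and 3733, 4 of them at least 4-fold lower and 1 higher. Clec4f of Kupffer cells gave 6780 and 118, the macrophage marker Cd68 52.9 and 1140, and Ptprc of all leukocytes 195 and 248. Of 6 endothelial markers 5 and 4 were, with sums of 4768 and 2253, and of 3 erythroid markers 2 and 2, with sums of 2813 and 526. The part of these other cells in the Cyp2 differences was not tested, and in bulk RNA fewer cells of a type and less RNA per cell cannot be told apart.

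To make the arrays comparable, each was divided by its 75th percentile, 741 for MHs and 1110 for Sox9+EpCAM- cells, and differences are given as log2 of Sox9+EpCAM- over MH after this scaling. Where a gene has several probes, the one with the highest mean over both arrays stands for it. Of the 44 genes 40 were measured on both arrays, and Cyp2c65, Cyp2c66, Cyp2g1 and Cyp2s1 were not well above background on either, so they have no difference. A 4-fold difference was used as a rule of size. By this rule 15 of 40 Cyp2 genes (37.5%) were lower in Sox9+EpCAM- cells, against 5.96% of all 21875 genes with a difference, and 0 of 40 were higher, against 5.98%. With a rule of 2-fold 23 of 40 were lower, against 17.9% of all genes, and with a rule of 10-fold 13 of 40, against 1.57%. The median log2 difference of the 40 genes was -1.49 and that of all genes -0.12. In all 37 of 40 Cyp2 genes (92.5%) and 55.3% of all genes lay below 0, although 15 of 40 lay above 0 where the arrays were scaled to Alb, the transcript of albumin. The 15 genes were Cyp2a4, Cyp2b9, Cyp2b10, Cyp2b13, Cyp2e1 and 10 Cyp2c genes. The next below the rule were Cyp2j8 (3.91-fold lower), Cyp2c44 (3.78-fold) and Cyp2w1 (3.65-fold), and the smallest difference past it was that of Cyp2c55 (7.69-fold).

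**Figure D1:**
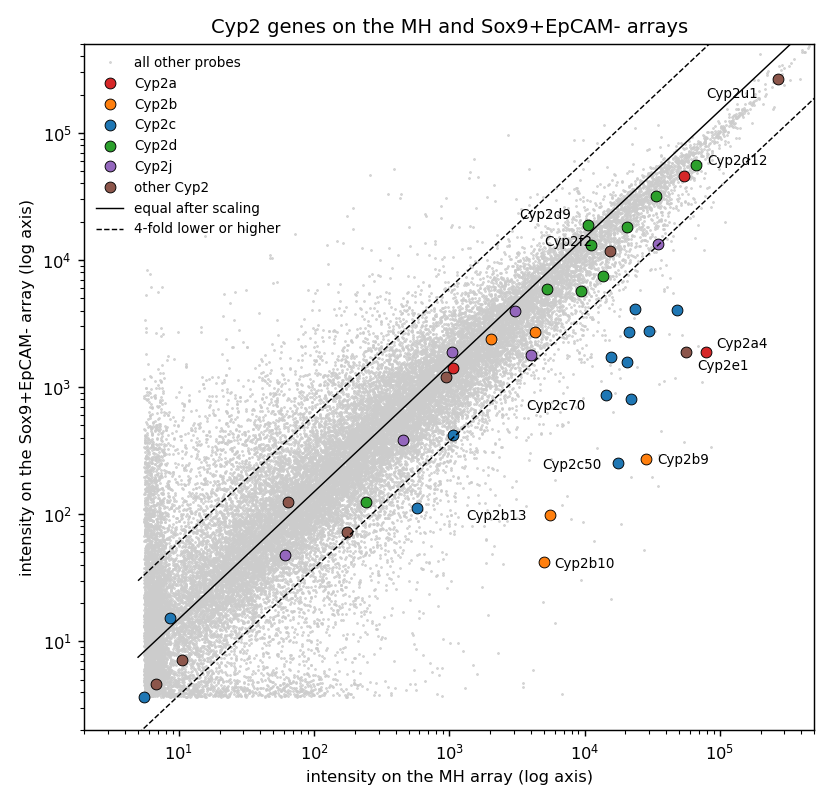
Intensity of every probe on the MH array (x axis, log scale) and the Sox9+EpCAM- array (y axis, log scale), with the brightest probe of each Cyp2 gene coloured by subfamily, 1 array per group and no error bars. The solid line marks equal values after scaling and the dashed lines a 4-fold difference. The Cyp2d genes (green) lie between the dashed lines, and 10 Cyp2c genes (blue) and 3 Cyp2b genes (orange) lie below the lower one.

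The software's own error of a spot reached at most 16.8% of the signal in MHs and 14.1% in Sox9+EpCAM- cells among Cyp2 probes above background. Cyp2c29 is printed in 10 spots, whose SD was 0.055 on the log2 scale on the MH array and 0.056 on the other. These errors cover the spots of an array and not the variation between mice.

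The Cyp2b subfamily was split, with 3 of 5 genes past the 4-fold rule. Cyp2b10 is the classical target of the nuclear receptor CAR, through which phenobarbital induces drug metabolism. Its intensity was 4990 in MHs and 41.8 in Sox9+EpCAM- cells, which is 179-fold lower after scaling (-7.48 on the log2 scale, and -6.04 with normexp background correction, which raises low signals). Cyp2b9, a steroid hydroxylase that is higher in female liver, gave 28400 and 272 (156-fold lower), and Cyp2b13, also higher in females, gave 5520 and 98.7 (83.8-fold lower, -6.39 on the log2 scale and -5.54 with normexp). The other members of the subfamily stayed within 4-fold. Cyp2b19, known as an arachidonic acid epoxygenase of skin keratinocytes, gave 2020 and 2370, a log2 difference of -0.35, and Cyp2b23 gave 4320 and 2730, a log2 difference of -1.25. The Cyp2b23 probe has 20 bases in a row in common with that of 1 other gene. Scaled to Alb, Cyp2b19 lay above 0 at 0.51.

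Cyp2b9 and Cyp2b13, which are neighbours in the order of the members, also have nearly the same promoter. In RefSeq (GRCm38.p6) the 250 bases before their starts are identical at 248 positions, the closest of the 630 pairs that the 36 members with a promoter in the table allow. The 80 bases that hold both mismatches are shown, with the mismatches in capitals, at chr7:26173194-26173273 for Cyp2b9 and chr7:26061280-26061359 for Cyp2b13, both on the plus strand.
Cyp2b9: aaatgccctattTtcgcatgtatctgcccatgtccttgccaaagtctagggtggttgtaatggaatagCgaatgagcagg
Cyp2b13: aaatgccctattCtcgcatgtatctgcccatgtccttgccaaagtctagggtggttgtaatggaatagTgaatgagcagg

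The Cyp2a subfamily was split in the same way. Cyp2a4, a testosterone hydroxylase that is higher in females, has 2 probes, and the array design lists both for Cyp2a4 and for Cyp2a5, the coumarin hydroxylase of the pericentral zone, so these 2 genes cannot be told apart. The brighter probe gave 78700 in MHs and 1900 in Sox9+EpCAM- cells (62-fold lower), and the other gave 69400 and 2090 (49.7-fold lower). Cyp2a12, a bile acid and steroid hydroxylase, gave 54300 and 45600, a log2 difference of -0.83. Cyp2a22 gave 1070 and 1420, a log2 difference of -0.17. Scaled to Alb, Cyp2a12 and Cyp2a22 lay above 0 at 0.03 and 0.69. On the log2 scale the difference of Cyp2a12 stood 5.12 above that of Cyp2a4.

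The promoters of Cyp2a12 and Cyp2a22 are identical at 212 of 239 aligned bases. Cyp2a4, which fell by probes also listed for Cyp2a5, and Cyp2e1, which fell, hold a TATA box (TATAAA) as these 2 do. It stands 28 to 39 bases before the start, as the last 60 bases before each start show, with TATAAA in capitals. They lie at chr7:26307132-26307191 (plus strand) for Cyp2a4, chr7:27029030-27029089 (plus) for Cyp2a12, chr7:26939387-26939446 (minus) for Cyp2a22 and chr7:140763759-140763818 (plus) for Cyp2e1, in GRCm38.p6 from RefSeq.
Cyp2a4: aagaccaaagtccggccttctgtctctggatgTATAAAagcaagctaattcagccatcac
Cyp2a12: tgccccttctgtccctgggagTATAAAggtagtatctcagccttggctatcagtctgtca
Cyp2a22: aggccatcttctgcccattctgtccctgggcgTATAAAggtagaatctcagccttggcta
Cyp2e1: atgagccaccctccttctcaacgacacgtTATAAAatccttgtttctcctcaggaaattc
On either strand TATAAA occurs in the 250 bases before the start of 17 of 36 Cyp2 genes, which are 7 of the 14 genes at least 4-fold lower and 10 of the other 22, and in 12.4% of all 32851 promoters of the table.

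Cyp2e1, which oxidises ethanol and acetaminophen and is a standard marker of pericentral hepatocytes, fell by both of its probes. The brighter probe gave 56100 in MHs and 1900 in Sox9+EpCAM- cells (44.2-fold lower), and the other gave 38500 and 1110 (52-fold lower). Cyp2f2, the naphthalene-oxidising enzyme and a periportal marker, gave 15300 and 11700, a log2 difference of -0.97. The difference of Cyp2f2 thus stood 4.50 above that of Cyp2e1 on the log2 scale, 22.6-fold, in the same pair of arrays. The other pericentral genes with probes of their own, Cyp2c29, Cyp2c37, Cyp2c50 and Cyp2c54, were all at least 4-fold lower. Thus 5 of 5 pericentral genes were, against 5.96% of all genes, with a median of -4.29, and all but Cyp2e1 are Cyp2c genes. This list, like those of female-biased genes and CAR targets below, was drawn up with earlier results of these data known.

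The Cyp2c subfamily is the largest of the family, with 13 genes on chromosome 19, and acts on drugs, arachidonic acid and steroids. Of 11 Cyp2c genes with a difference 10 were lower by 4-fold or more, and the median was -4.01. Cyp2c29, an epoxygenase of arachidonic acid that CAR induces, gave 48060 and 4002 over its 10 spots (18-fold lower). Cyp2c50 gave 17700 and 252 (105-fold lower), the largest decrease of the subfamily by the brightest probe. Cyp2c38 gave 22100 and 806 (41.1-fold lower), and its other probe gave 721 in MHs and was not well above background in Sox9+EpCAM- cells, at least 58.7-fold lower. Cyp2c39, a female-biased gene, gave 23700 and 4080 (8.70-fold lower). Cyp2c55, another target of CAR, gave 575 and 112 (7.69-fold lower, -2.94 on the log2 scale and -2.26 with normexp). Cyp2c70, which hydroxylates bile acids to muricholic acids in mouse, gave 14400 and 864 (25-fold lower). Cyp2c44, an epoxygenase of arachidonic acid whose current symbol is Cyp2c23, was within 4-fold, at 1060 and 420.

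For 3 Cyp2c genes the size of the decrease depended on the probe. Cyp2c37 gave 29700 and 2770 by its brightest probe (16.1-fold lower) and 12400 and 332 by the other (55.9-fold lower). Cyp2c54 gave 20500 and 1570 by a probe at chr19:40144659-40144718 of mm9 (19.6-fold lower). Its other probes, one of which spans an intron, gave 9760 and 86.3 (169-fold lower) and 7960 and 91.4 (130-fold lower), so that the 3 probes lay on the same side of the rule but differed by more than 4-fold. Cyp2c67 gave 21200 and 2710 (11.7-fold lower) and 18100 and 1390 (19.5-fold lower).

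Cyp2c67 and Cyp2c68 are near copies, and what their probes measured is shared. The brightest Cyp2c67 probe is listed for Cyp2c67, Cyp2c68 and Cyp2c40, and the Cyp2c68 probe, which gave 15700 and 1710 (13.8-fold lower), for Cyp2c68, Cyp2c69 and Cyp2c40. The other Cyp2c67 probe and the Cyp2c68 probe are identical at 55 of 59 aligned bases, as 30 bases of each with 2 of the 4 mismatches in capitals show (chr19:39683429-39683488 and chr19:39763420-39763479 of mm9 for the whole probes).
Cyp2c67: acAcagtcccagAaattccatctatattcc
Cyp2c68: acCcagtcccagGaattccatctatattcc
The 3 values of this pair are therefore no independent measures of 2 genes.

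A stretch with the letters CAAAGTCCA, of the type that the nuclear receptor HNF4α binds, was found before the start of 4 Cyp2c genes, all on the strand of the gene. They are 3 of the 14 Cyp2 genes at least 4-fold lower that have a promoter in the table and 1 of the other 22, and the letters occur on either strand in 0.384% of all promoters. The 60 bases around it are shown with the match in capitals, at chr19:39649133-39649192 (minus strand) for Cyp2c67, chr19:39741144-39741203 (minus) for Cyp2c68, chr19:40187316-40187375 (minus) for Cyp2c70 and chr19:39060865-39060924 (plus) for Cyp2c65 of GRCm38.p6.
Cyp2c67: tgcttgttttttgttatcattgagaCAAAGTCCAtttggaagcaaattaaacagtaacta
Cyp2c68: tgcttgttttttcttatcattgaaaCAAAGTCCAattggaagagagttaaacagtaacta
Cyp2c70: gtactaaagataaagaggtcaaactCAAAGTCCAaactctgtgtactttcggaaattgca
Cyp2c65: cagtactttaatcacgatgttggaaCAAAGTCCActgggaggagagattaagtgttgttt
Cyp2c67 and Cyp2c68, whose values are no independent measures, fell, as did Cyp2c70. Cyp2c65, a gene known mainly from the intestine, was not well above background. AGGTCA, the core that many nuclear receptors bind, stood before 10 of 36 Cyp2 genes and 14% of all promoters, GTTAAT, part of the HNF1 motif, before 3 of 36 and 6.43%, and TTCNNNGAA, bound by STAT5, before 1 of 36 and 7.02%. A match describes these letters only.

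**Figure D2:**
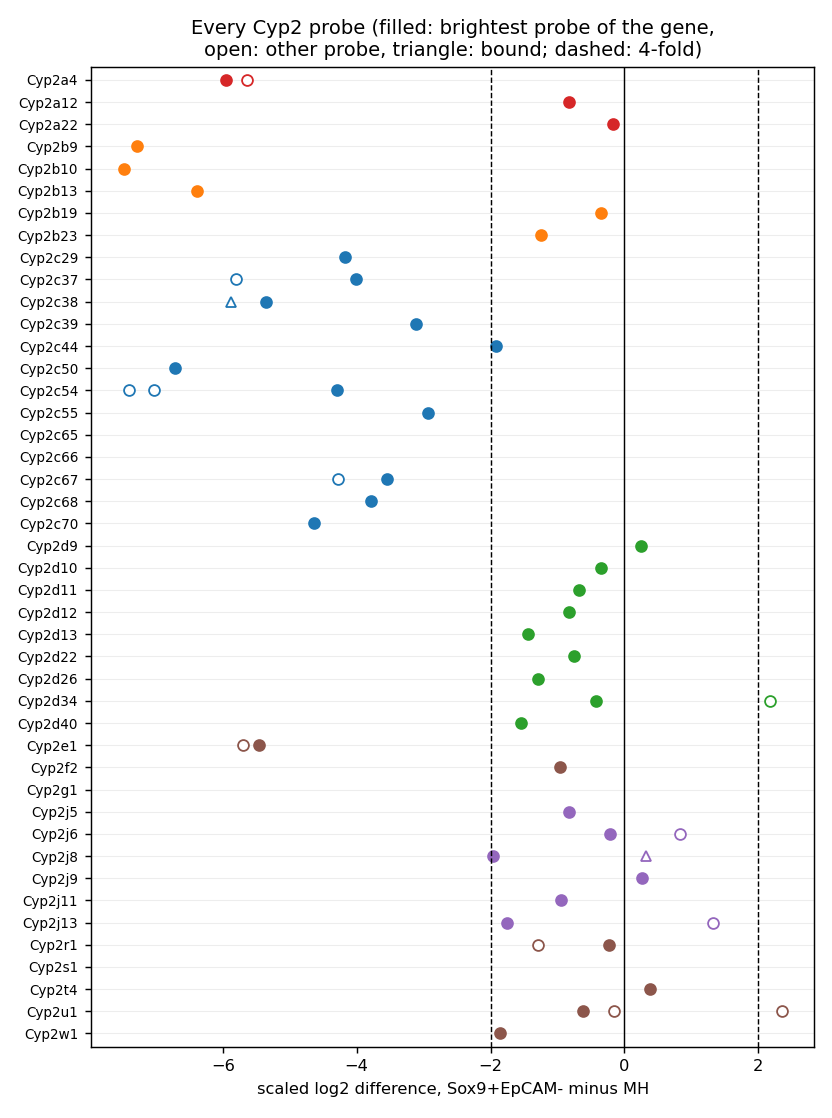
Scaled log2 difference, Sox9+EpCAM- minus MH, of every Cyp2 probe (x axis) by gene (y axis), 1 array per group and no error bars. Filled points are the brightest probe of a gene, open points its other probes, triangles bounds and dashed lines a 4-fold difference. Both probes of Cyp2a4 and of Cyp2e1 lie below -5, while Cyp2d34, Cyp2j6, Cyp2j8, Cyp2j13 and Cyp2u1 have probes on both sides of 0.

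The Cyp2d subfamily, which includes the mouse relatives of the human drug-metabolising enzyme CYP2D6, differed from the Cyp2c subfamily in size of change. Of 9 Cyp2d genes 0 were 4-fold lower, with a median of -0.75 and a range of -1.54 to 0.25. At 5.96% of all genes a set of this size need not hold any. Cyp2d9, a testosterone hydroxylase that is higher in male liver, gave 10600 in MHs and 18900 in Sox9+EpCAM- cells, the highest difference of the subfamily. Cyp2d10 gave 11200 and 13200, Cyp2d11 33900 and 31700, Cyp2d12 66900 and 56300 and Cyp2d22 20500 and 18200, with log2 differences of -0.35, -0.68, -0.83 and -0.75. Cyp2d26 gave 9350 and 5690, Cyp2d40 243 and 125 and Cyp2d13, a pseudogene in RefSeq, 13600 and 7490, with -1.30, -1.54 and -1.44. The difference of Alb was -0.87, and 6 of 9 Cyp2d genes stood above it, so that of these 6 all but Cyp2d9, which was above 0 in both, changed direction when scaled to Alb. Cyp2d34 was read differently by its probes. The brighter gave 5300 and 5930 (-0.42), and the other gave 350 and 2360, which is 4.50-fold higher.

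The Cyp2j genes, epoxygenases of arachidonic and linoleic acid that are also expressed in heart and kidney, lay within 4-fold by their brightest probes. Of 6 genes 0 were past the rule, with a median of -0.89, and at 5.96% of all genes a set of this size need not hold any. Cyp2j5 gave 451 and 381 (-0.83), Cyp2j9 1040 and 1870 (0.26) and Cyp2j11 61 and 47.5 (-0.94). Scaled to Alb the median was -0.02, and Cyp2j5 and Cyp2j6 lay above 0 at 0.04 and 0.66. The 3 other genes have probes that differed by more than 1.5-fold. Cyp2j8 gave 35000 and 13400 (-1.97) by one probe, and by the other 52.3 in Sox9+EpCAM- cells and no signal well above background in MHs, at least 1.26-fold higher. Cyp2j6 gave 3050 and 3950 (-0.21) and 138 and 369 (0.84). Cyp2j13 gave 4040 and 1800 (-1.75) by a probe that spans an intron and is listed for Cyp2j12 too, 43.7 and 164 (1.32) by another, and was not well above background by its last.

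The remaining members were low or ambiguous. Cyp2r1, which hydroxylates vitamin D at carbon 25, gave 947 and 1210 (-0.23) by one probe and 153 and 93.1 (-1.30) by the other. Cyp2t4 gave 63.8 and 124 (0.38). Cyp2w1, known from fetal gut and colon tumours, gave 176 and 72.3 (-1.87). Cyp2u1, a fatty acid hydroxylase of brain and thymus, has 3 probes, of which the brightest gave 270000 and 263000 (-0.62) but has 20 bases in a row in common with probes of 56 other genes. Another gave 1520 and 2050 (-0.15), and the last, which alone is listed for its RefSeq transcript, gave 189 and 1440, which is 5.09-fold higher. The level of Cyp2u1 is therefore uncertain, and the brightest probe may read other transcripts, which was not tested. Scaled to Alb, Cyp2r1 and Cyp2u1 lay above 0 at 0.64 and 0.25.

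Over the family, 12 genes have several probes, which differed by more than 1.5-fold for 9 of them and by more than 4-fold for Cyp2c54, Cyp2d34, Cyp2j8, Cyp2j13 and Cyp2u1. In 5 of the 59 probes 20 bases in a row were shared with another gene's probe, against 7.19% of all probes, and 6 are listed for more than 1 gene.

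**Figure D3:**
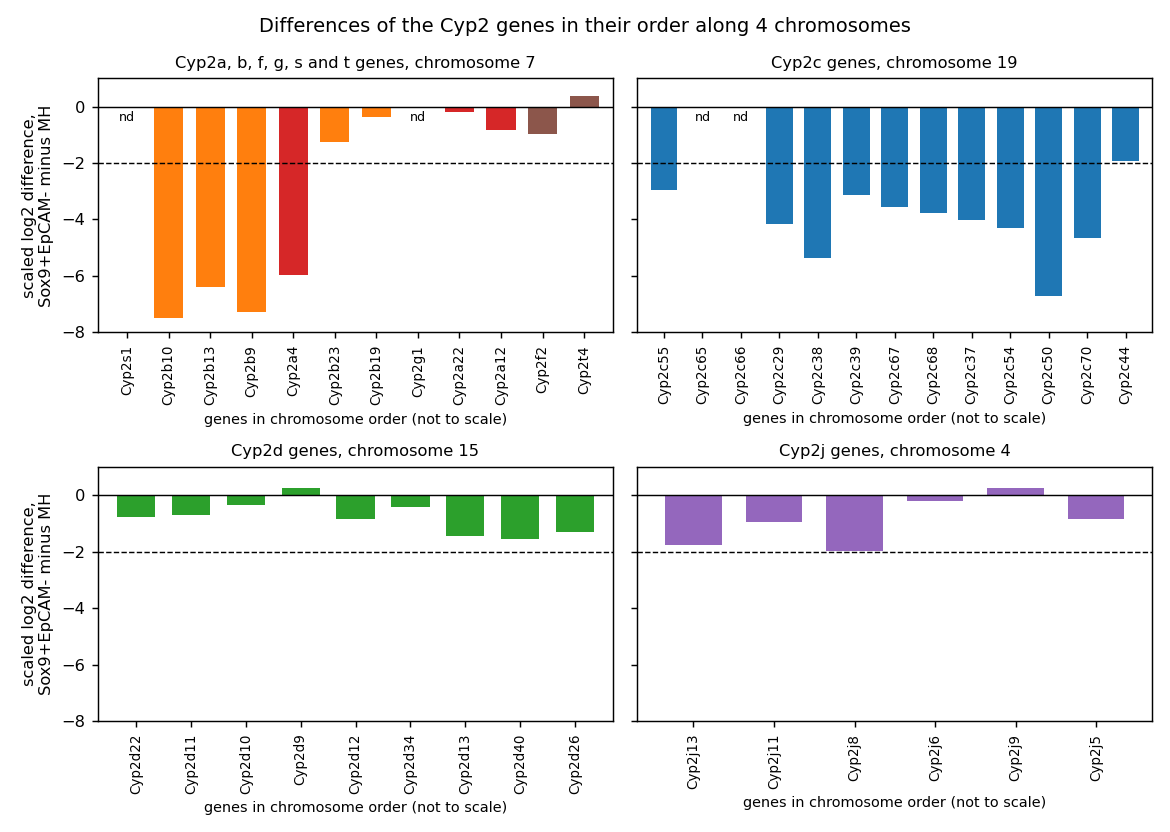
Scaled log2 difference, Sox9+EpCAM- minus MH (y axis), of the brightest probe of each Cyp2 gene in the order of the genes along 4 chromosomes (x axis, not to scale), 1 array per group and no error bars; nd marks a gene not well above background on both arrays. On chromosome 7 the 4 genes from Cyp2b10 to Cyp2a4 lie below the dashed 4-fold line and the next measured genes above it.

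Of the 15 genes past the rule 14 lay in the clusters of chromosomes 7 and 19, and Cyp2e1 lay apart from them, at chr7:147956922-147956981 of mm9. On chromosome 7 the probes of 12 Cyp2a, b, f, g, s and t genes lie at chr7:26587495-27943565 of mm9. In this order Cyp2b10, Cyp2b13, Cyp2b9 and Cyp2a4 followed each other and were 62-fold to 179-fold lower, and Cyp2b23, Cyp2b19, Cyp2a22, Cyp2a12, Cyp2f2 and Cyp2t4, which come next, differed by -1.25 to 0.38 on the log2 scale. Both parts hold Cyp2a and Cyp2b genes, so that the split did not follow the subfamilies. The genes from Cyp2b10 to Cyp2a4 are also the measured female-biased genes of this region, so position and sex cannot be told apart. On chromosome 19 the 10 genes past the rule lay between Cyp2c55 and Cyp2c70, interrupted by Cyp2c65 and Cyp2c66, which have no difference. Cyp2c44, the gene within 4-fold, was the last in the order. Its probe, at chr19:44079535-44079594 of mm9, lies far from that of Cyp2c70, at chr19:40227969-40228028. Cyp2d on chromosome 15 and Cyp2j on chromosome 4 held no gene past the rule, and at 5.96% of all genes sets of their size need not. Neighbours of one cluster share sequence, and these are 2 arrays, so the order is a description.

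By their known sex bias, 5 of 5 female-biased genes with a difference passed the 4-fold rule downwards, against 5.96% of all genes. They were Cyp2a4, Cyp2b9, Cyp2b10, Cyp2b13 and Cyp2c39, with a median of -6.39, and the male-biased Cyp2d9 lay at 0.25. Cyp2g1, also on the female-biased list, was not well above background on either array, at 6.83 in MHs and 4.59 in Sox9+EpCAM- cells. The signal counted as Cyp2a4 may be that of the pericentral Cyp2a5, and without it the count is 4 of 4. Cyp2c40 and Cyp2c69 have no probe of their own name. With 1 array per group, sex as read by Xist and the Y-linked genes, diet and isolation cannot be told apart here. Of the genes that carry the growth hormone signal behind this sex bias, Cux2, a repressor that is higher in female liver, gave 3120 and 182 (25.7-fold lower) by one probe and a log2 difference of -2.28 by the other. The growth hormone receptor Ghr gave 3590 and 1070 (5.03-fold lower), Stat5b 561 and 456 (-0.88), and Bcl6, which is higher in male liver, 260 and 474 (0.28).

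Of the targets of CAR 4 of 4 were past the rule, against 5.96% of all genes, with a median of -4.09. This count is not separate from those above, since Cyp2b10 is also on the female-biased list and Cyp2c29 and Cyp2c37 are on the pericentral one. Nr1i3, which encodes CAR itself, gave 23200 and 3480 (9.99-fold lower), and its other probe differed by -2.64. Of the 17 regulators 3 were at least 4-fold lower, Nr1i3, Ghr and Cux2, against 5.96% of all genes. By the same rule 0 were higher, against 5.98%, and the median of the 17 was -0.63. The pregnane receptor PXR (Nr1i2) gave 4130 and 3950 (-0.65), its partner Rxra 4230 and 5610 (-0.18), and Hnf4a, the hepatocyte nuclear receptor, 4990 and 6360 (-0.23). Cebpa gave 10900 and 6660 (-1.29), Nr3c1, the glucocorticoid receptor, 2040 and 1180 (-1.37), and the bile acid receptor Nr1h4 606 and 1220 (0.43). Scaled to Alb, each of these differences is 0.87 higher, so that those of Nr1i2, Rxra and Hnf4a lie above 0. Ghr, at -1.46, is then no longer past the rule, which leaves 2 of 17, against 2.34% of all genes.

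Of the partners that supply electrons 0 of 5 were past the rule, with a median of -1.22, and at 5.96% of all genes a list of this size need not hold any. Por gave 6060 and 3040 (-1.58), Cyb5b 9260 and 5730 (-1.28), Cyb5r3 18600 and 20300 (-0.46), Pgrmc1 17000 and 10900 (-1.22) and Pgrmc2 765 and 1130 (-0.02). Scaled to Alb, Cyb5r3 and Pgrmc2 lay above 0 at 0.41 and 0.85. Of 8 genes of heme supply with a difference 2 were at least 4-fold lower, against 5.96% of all genes. Alad, the second enzyme of heme synthesis, gave 7700 and 1750 (6.59-fold lower), and Alas1, the rate-limiting one, 8580 and 3210, just past the rule, by its brightest probe, while its other probe differed by 0.27. Scaled to Alb, Alad and Alas1 lay at -1.85 and -1.13, and 0 of 8 were past the rule downwards, against 2.34% of all genes. Hmox1, which degrades heme, was the 1 gene of the list that was higher, at 1420 and 49400 (4.54 on the log2 scale) by its brightest probe and with a log2 difference of 6.46 by the other. Uros was well above background in Sox9+EpCAM- cells only, at 40.5 against 15, so that no difference could be given, and the other enzymes lay between -1.36 (Urod) and -0.10 (Ppox).

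**Figure D4:**
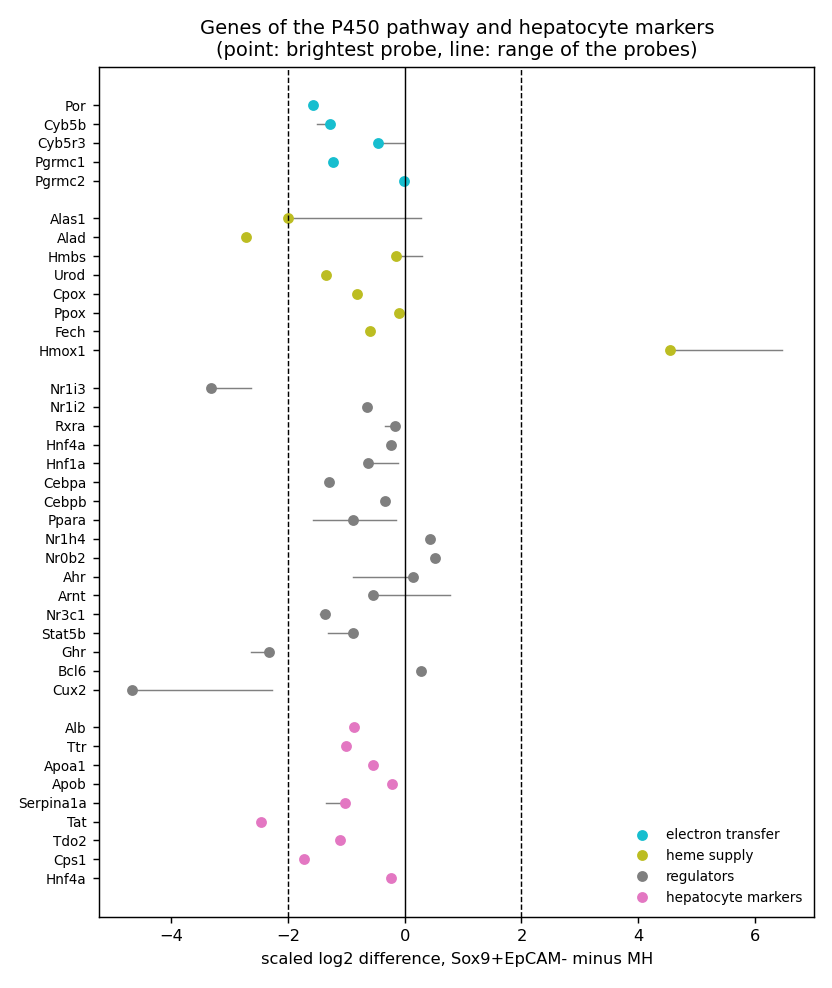
Scaled log2 difference, Sox9+EpCAM- minus MH (x axis), of electron transfer partners, heme supply genes, regulators of Cyp2 genes and hepatocyte markers (y axis), 1 array per group and no error bars. Points are the brightest probe, grey lines the range of all probes of a gene and dashed lines a 4-fold difference. Nr1i3, Ghr, Cux2, Alad and Alas1 lie at or below the lower line, Tat too, and Hmox1 lies above the upper one.

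Of the 9 hepatocyte markers Tat alone was past the rule (-2.46), and scaled to Alb it was not (-1.60). Set against the difference of Alb, 25 of 40 Cyp2 genes lay below it and 15 above. At least 4-fold below it were 15 of 40, against 2.34% of all genes, and 0 of 40 were 4-fold above it, against 12.6%. On the log2 scale the difference of Cyp2e1 minus that of Alb was -4.60 and that of Cyp2c70 minus Alb was -3.77, whereas Cyp2f2 minus Alb was -0.10 and Cyp2d10 minus Alb was 0.52.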

How the data were processed

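RNA of 2 samples, MHs and Sox9+EpCAM- cells, was read, with Cy3 as the dye, on 2 Agilent arrays of 1 slide. The authors deposited intensity values as Feature Extraction wrote them, with background subtracted and no normalization between arrays, and a ratio table, whose values are these intensities over the array median. Probe names and mm9 coordinates are those of the array design, and 43 of 44 gene names are current RefSeq symbols. Control spots and outlier spots on either array were left out, intensities were divided by the 75th percentile of the array, and log2 was taken. Where a probe was not well above background on 1 array, a bound replaced its value there, its own signal or the lowest signal well above background (27.8 and 18.4), whichever was higher. All members are named. Members and lists were chosen with earlier results of these data known. Each group was its label and n was 1, so no test was run. Alternatives were normexp (limma 3.58.1, R 4.3.3, offset 50), other scalings, other choices of probe and other thresholds. The rest was done in Python 3.11.15 (pandas 2.3.3, numpy 2.4.6), and the procedure was tested on simulated data. One marker gene of the lists is not reported here.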

Additional observations from a re-analysis of the deposited data

How the results depend on the processing

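The 15 genes at least 4-fold lower kept this call under normexp, under each scaling (16 with quantile normalization, 17 with Gapdh and 18 with the deposited table, which add Cyp2w1, Cyp2c44 or Cyp2j8) and under each choice of probe. Leaving out probes that share 20 bases with another gene's lost Cyp2c68 (14 genes), and keeping only probes listed for 1 gene, an alternative chosen after seeing the data, lost Cyp2a4 and Cyp2c68 (13 genes). With thresholds of 2-fold and 10-fold 23 and 13 genes were lower, against 17.9% and 1.57% of all genes. The count of genes at least 4-fold higher was 0 except with the probe of the largest difference (2, Cyp2d34 and Cyp2u1) and with probes listed for 1 gene (1, Cyp2u1). The median of the Cyp2 genes was -0.63 when scaled to Alb, which moves all genes by 0.87, and between -1.67 and -1.27 otherwise; Gapdh and the deposited table move all genes by -0.13 and -0.18. Under normexp, where low signals are raised, Cyp2b10, Cyp2b13 and Cyp2c55 were -6.04, -5.54 and -2.26. None of the 15 genes changed its sign under these alternatives. No paired analysis was possible because only 1 array stands for each group, and for the same reason no replicate was left out and no slide block was fitted. Levels under 27.8 in MHs and 18.4 in Sox9+EpCAM- cells were not measurable.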

Other observations

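Some probes outside the naming rule read related sequences, and they were chosen after their values were seen. An unnamed probe that is identical to one Cyp2a4 probe at 52 of 56 aligned bases gave 46500 in MHs and 1180 in Sox9+EpCAM- cells, 59-fold lower. The pseudogene Cyp2d37-ps gave 389 and 390, a log2 difference of -0.58, within the range of the Cyp2d genes. Cyp2ab1 gave 45.2 in Sox9+EpCAM- cells and was not well above background in MHs, at least 1.09-fold higher.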
